A study of Mus musculus with 4 samples.

Results

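The Dlk1-Dio3 imprinted cluster of mouse chromosome 12 encodes many microRNAs (miRNAs), and 41 of them were followed here in the esophagus and serum of L2-IL-1β mice, a transgenic line that develops Barrett's esophagus. The members were chosen by name: each of the 41 had 1 probe of its own among the 1265 miRNA probes of the array, and none was read by a probe shared with another miRNA. There were 4 groups with 1 array each: esophagus at 46 weeks of age, esophagus at 28 weeks, serum at 46 weeks and serum at 28 weeks, called older and younger below. All 4 carry the disease label Barrett's esophagus and the strain label L2-IL-1β, and mice without the transgene were not analysed here. The labels give neither the number of mice behind each RNA sample nor the promoter of the transgene. With 1 array per group, no difference below has a replicate check or a p-value. Tissue RNA was extracted with a mirVana kit and serum RNA with an miRNeasy Serum/Plasma kit, so the effect of the kit cannot be told apart from that of the sample type.

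The cluster is an imprinted domain, in which the copy inherited from the mother expresses the noncoding RNAs Meg3, Rian and Mirg together with the miRNAs, and the copy from the father expresses the protein genes Dlk1, Rtl1 and Dio3. Its miRNAs are known for high levels in placenta, embryo and brain, and mice that lack the miR-379 to miR-410 group have trouble adapting their metabolism after birth. A mature miRNA binds its targets mainly through its seed, bases 2 to 8 from the 5′ end.

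RefSeq (build GRCm38.p6) held a mature sequence for 38 of the 41 members, which lay on the plus strand of chromosome 12 within chr12:109580283-109743784, a span of 163.5 kb. The first 9, from miR-493-3p to miR-136-5p, lay within the span of the retrotransposon-like gene Rtl1. Next came miR-370-3p within Rian, then 21 members between Rian and Mirg, and 7 within Mirg. The 38 members had 38 different seeds, so none shared a seed in full. The 16 sequences below are those of members read above the detection limit on at least 2 arrays, in chromosome order, with the seed in capitals.
mmu-miR-493-3p: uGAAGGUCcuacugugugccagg
mmu-miR-337-3p: uCAGCUCCuauaugaugccuuu
mmu-miR-665-3p: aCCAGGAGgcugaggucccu
mmu-miR-127-3p: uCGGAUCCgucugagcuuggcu
mmu-miR-370-3p: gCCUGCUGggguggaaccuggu
mmu-miR-299a-5p: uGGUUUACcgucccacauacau
mmu-miR-329-3p: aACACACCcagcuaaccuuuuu
mmu-miR-494-3p: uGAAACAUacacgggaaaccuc
mmu-miR-666-5p: aGCGGGCAcagcugugagagcc
mmu-miR-495-3p: aAACAAACauggugcacuucuu
mmu-miR-667-3p: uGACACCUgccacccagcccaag
mmu-miR-300-3p: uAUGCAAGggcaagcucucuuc
mmu-miR-381-3p: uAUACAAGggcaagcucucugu
mmu-miR-668-3p: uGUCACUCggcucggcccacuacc
mmu-miR-154-5p: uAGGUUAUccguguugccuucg
mmu-miR-409-3p: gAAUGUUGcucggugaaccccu

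The most alike pair was miR-300-3p and miR-381-3p, equal at 19 of 22 positions counted from the 5′ end. The pair miR-376a-3p and miR-376b-3p was equal at 18 of 21 positions, and miR-495-3p and miR-543-3p at 18 of 22. How far the probes of such pairs tell one miRNA from the other was not tested.

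Levels are given as net signal, the median intensity of a spot minus the mean of the array's 1664 empty (BLANK) spots, in arbitrary units. Levels of different miRNAs come from different probes and are not set against each other as amounts. A miRNA was called detected when its spot was above the mean plus 2 SD of the 97 spots without a probe (No Probe). In net signal this limit lay at 7.57 and 9.06 in older and younger esophagus, and at 7.49 and 4.87 in older and younger serum. The SD of No Probe spots was 1.91 and 2.01 in esophagus and 2.21 and 1.43 in serum, in the same order of ages. A ± after a net signal is the spot-noise SD, which combines this SD with the coefficient of variation of the spike-in spots (0.032 to 0.055 of their mean) and leaves out all variation between mice, extractions and hybridisations.

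Most members of the cluster lay at or near background. The array detected 16 members (39.0%) in esophagus at 46 weeks and 12 (29.3%) at 28 weeks, against 53.6% and 45.3% of all miRNA probes. In serum it detected 11 members (26.8%) at 46 weeks and 21 (51.2%) at 28 weeks, against 46.6% and 60.4% of all probes. The share of members was below that of all probes on each of the 4 arrays. The high count in serum at 28 weeks went with the lowest limit of the 4 arrays: at one common net limit of 9.06 the counts were 15 and 12 in esophagus and 11 and 13 in serum, at 46 and 28 weeks in each. In bulk samples, fewer cells of a type and less RNA per cell cannot be told apart.

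By number of arrays, 7 of the 41 were detected on all 4, 5 on 3, 6 on 2, 5 on 1 and 18 on none. Of the 1265 miRNA probes 485 were detected on all 4 arrays, 118 on 3, 93 on 2 and 445 on none. The 7 were miR-493-3p and miR-665-3p of the Rtl1 span, miR-370-3p, and miR-494-3p, miR-667-3p, miR-668-3p and miR-409-3p of the miR-379 to miR-410 group. The 5 detected on 1 array were miR-434-3p, miR-376a-3p, miR-376b-3p, miR-539-5p and miR-382-5p, all in serum at 28 weeks, with net signals of 5.07 to 11.3. At the common net limit of 9.06, only miR-376b-3p of these would be detected there.

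**Figure D1:**
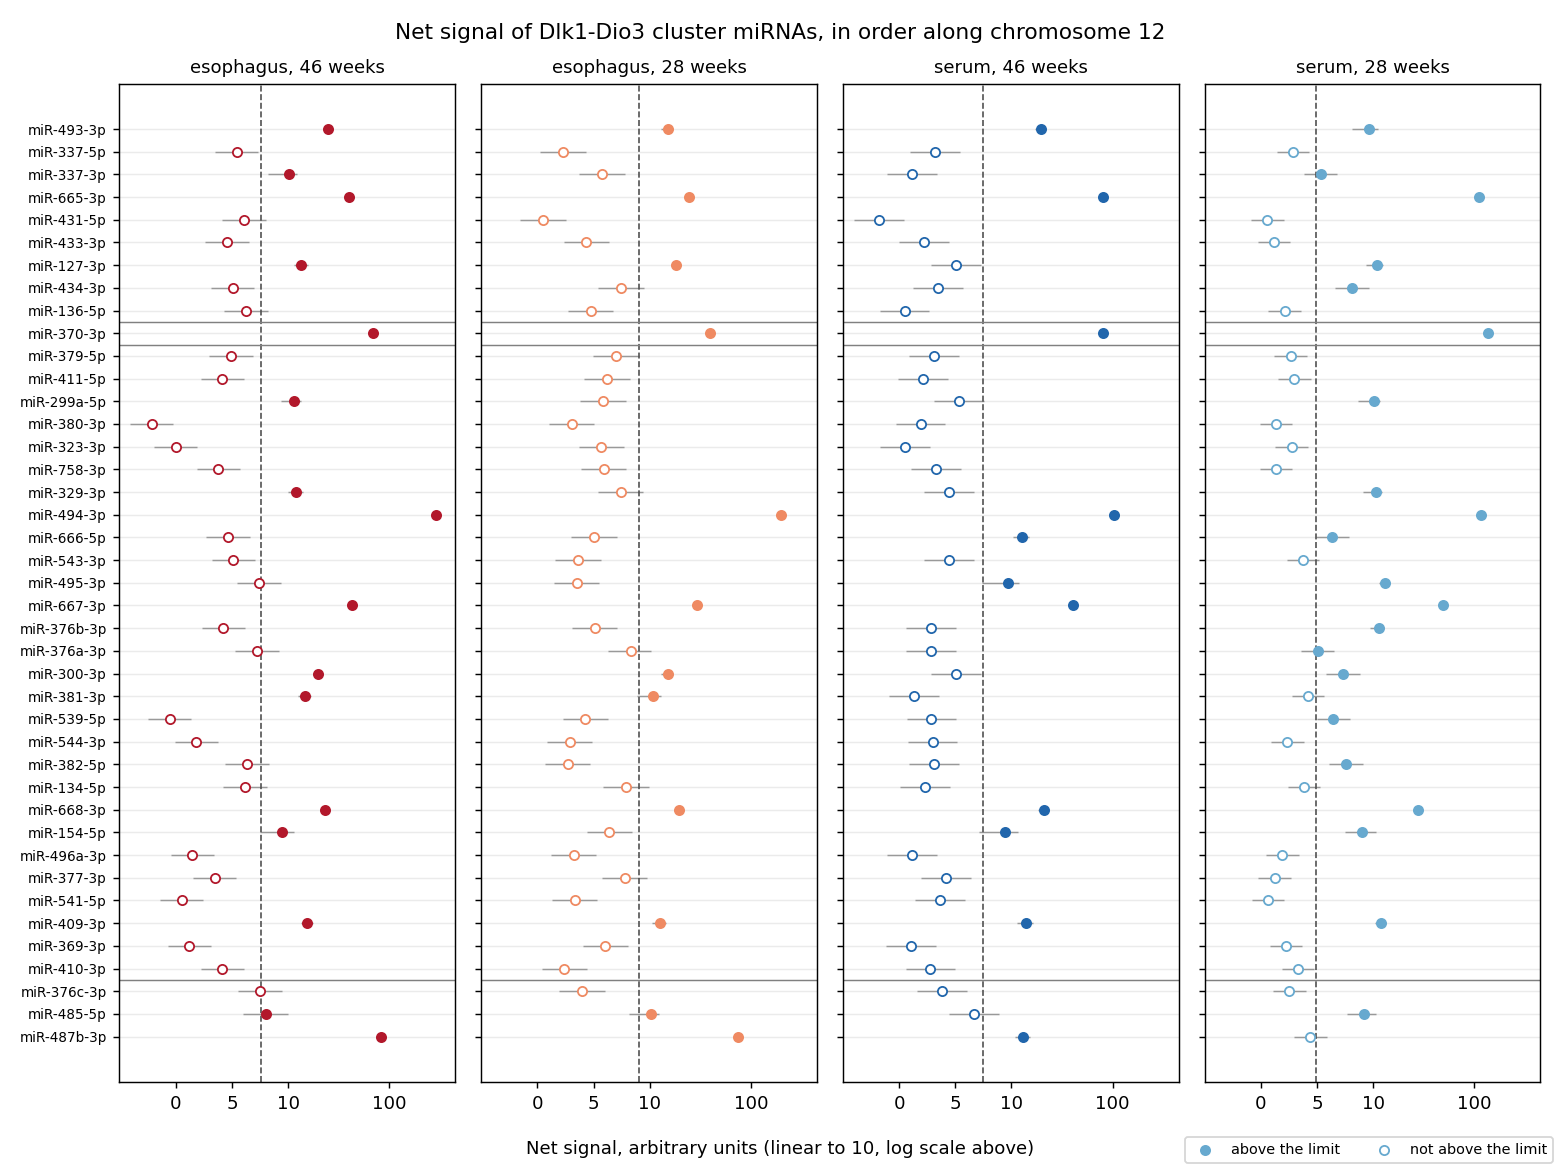
Net signal (arbitrary units, linear to 10 and logarithmic above) of the 41 members on the 4 arrays, in chromosome order from top to bottom, with miR-376c-3p, miR-485-5p and miR-487b-3p at the bottom. Filled points are above the detection limit of that array (dashed line), open points are not, bars are the spot-noise SD, and horizontal lines separate the Rtl1 span, miR-370-3p and the miR-379 to miR-410 group. The 7 members detected on all 4 arrays stand to the right of the limit in every panel. In 3 panels 5 others do so, namely miR-127-3p, miR-300-3p, miR-154-5p, miR-485-5p and miR-487b-3p.

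The Rtl1 span encodes miRNAs on the strand opposite to Rtl1, and several of them, miR-127-3p, miR-136-5p, miR-431-5p, miR-433-3p and miR-434-3p, are fully complementary to the Rtl1 transcript and known to repress it. Among these, mmu-miR-127-3p had 13.55 net units in esophagus at 46 weeks and 18.3 at 28 weeks, and 5.10 in serum at 46 weeks and 10.9 at 28 weeks. It was above the limit on 3 arrays and below it in serum at 46 weeks. The other complementary members mmu-miR-136-5p, mmu-miR-431-5p and mmu-miR-433-3p were detected on no array, and mmu-miR-434-3p only in serum at 28 weeks, at 8.14.

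The same span holds mmu-miR-665-3p, which read 39.6 ± 2.8 and 24.3 ± 2.2 in older and younger esophagus, and 81.0 ± 5.0 and 110.8 ± 6.3 in older and younger serum. Both serum values were above both esophageal values. Its neighbour mmu-miR-493-3p read 24.6 and 15.1 in older and younger esophagus, and 19.4 and 9.62 in serum. Before any scaling, the value at 46 weeks was the higher one in each sample type. Of the hairpin miR-337, mmu-miR-337-5p was detected nowhere. Its other arm mmu-miR-337-3p read 10.2 and 5.75 in esophagus and 1.18 and 5.31 in older and younger serum, above the limit in esophagus at 46 weeks and in serum at 28 weeks.

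The single member within Rian, mmu-miR-370-3p at chr12:109618305-109618326, lay well above the limit on every array. It had 69.75 ± 4.2 net units in esophagus at 46 weeks and 39.3 ± 2.4 at 28 weeks, and 80.6 ± 5.0 in serum at 46 weeks and 135.4 ± 7.6 at 28 weeks. The value at 46 weeks was the higher one in esophagus and the lower one in serum.

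The miR-379 to miR-410 group, from chr12:109709065 to chr12:109743784, holds 4 of the 7 members detected on all arrays. The first of these by position was mmu-miR-494-3p at chr12:109715367-109715388, with 290.6 ± 15.5 and 198.5 ± 6.7 net units in older and younger esophagus and 102.7 ± 6.1 and 116.0 ± 6.5 in serum. Both esophageal values were above both serum values.

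For the other 3, esophageal and serum signals overlapped. The miRNA mmu-miR-667-3p read 42.7 and 29.1 in older and younger esophagus and 40.5 and 49.3 in serum. For mmu-miR-668-3p the values were 23.1 and 19.4 in esophagus and 20.8 and 27.8 in serum, and for mmu-miR-409-3p 15.55 and 12.6 in esophagus and 13.8 and 11.9 in serum.

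The look-alike pair mmu-miR-300-3p and mmu-miR-381-3p was on the esophageal side. Net signals of miR-300-3p were 20.0 and 15.1 in older and younger esophagus, and 5.06 and 7.32 in serum, where the value at 46 weeks was under the limit. Those of miR-381-3p were 14.6 and 10.9 in esophagus and 1.301 and 4.20 in serum, where neither passed the limit. It was the one member detected on both esophageal arrays and on neither serum array. At the common net limit of 9.06, miR-300-3p would show this pattern as well. The share of all miRNA probes with this pattern was not counted. An esophageal excess was also seen in mmu-miR-487b-3p, with 83.6 ± 4.8 and 74.7 ± 3.1 in older and younger esophagus, and 13.04 ± 2.3 and 4.40 ± 1.5 in serum, the last under the limit.

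The converse pattern, detection on both serum arrays and on neither esophageal array, was seen in 2 members. The miRNA mmu-miR-495-3p read 7.39 and 3.48 in older and younger esophagus and 9.67 and 13.1 in serum. The miRNA mmu-miR-666-5p read 4.66 and 5.03 in esophagus and 12.6 and 6.37 in serum. All 8 of these values were under 14 net units, and the limit itself was lowest in serum at 28 weeks. At the common net limit of 9.06, miR-666-5p would not be detected in serum at 28 weeks, and miR-495-3p would keep the pattern. The share of all miRNA probes with this serum pattern was not counted, so it cannot be called a trait of the cluster.

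Members in the middle range were detected on some arrays only. Net signals of mmu-miR-154-5p were 9.465 and 6.42 in older and younger esophagus and 9.38 and 9.04 in serum. For mmu-miR-299a-5p they were 11.4 and 5.85 in esophagus and 5.35 and 10.2 in serum, for mmu-miR-329-3p 11.99 and 7.42 in esophagus and 4.45 and 10.6 in serum, and for mmu-miR-485-5p 7.996 and 10.2 in esophagus and 6.66 and 9.18 in serum. Both miR-299a-5p and miR-329-3p passed the limit in esophagus at 46 weeks and in serum at 28 weeks and in neither of the other samples.

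The 18 members detected on no array had net signals of -2.14 to 7.89 over the 4 arrays. Beside miR-337-5p, miR-431-5p, miR-433-3p and miR-136-5p of the Rtl1 span, they were mmu-miR-376c-3p, not matched in RefSeq, and 13 matched members of the miR-379 to miR-410 group. Among these 13 were mmu-miR-134-5p, known from rat neurons as a regulator of dendritic spine size, at 6.17 and 7.89 in esophagus and 2.31 and 3.86 in older and younger serum, and the outermost miRNAs of the group, mmu-miR-379-5p and mmu-miR-410-3p. The others were mmu-miR-411-5p, mmu-miR-380-3p, mmu-miR-323-3p, mmu-miR-758-3p, mmu-miR-543-3p, mmu-miR-544-3p, mmu-miR-496a-3p, mmu-miR-377-3p, mmu-miR-541-5p and mmu-miR-369-3p. Of the miR-376 members, whose precursors are known for adenosine-to-inosine editing, mmu-miR-376b-3p read 4.23 and 5.10 in esophagus and 2.81 and 11.3 in older and younger serum, and passed the limit in serum at 28 weeks only.

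The smooth muscle miRNAs were higher in esophagus than in serum, and the summed signal of 4 erythrocyte miRNAs was higher in serum. The smooth muscle miRNAs miR-143-3p and miR-145a-5p summed to 5261 and 5195 net units in older and younger esophagus, against 223.6 and 256.8 in serum. The 4 erythrocyte miRNAs summed to 128.1 and 197.6 in esophagus, against 24713 and 37941 in serum. Of the serum sums miR-451a alone gave 23648 and 36871. For miR-144-3p the values were 8.01 and 80.9 in older and younger esophagus and 47.4 and 134.5 in serum. The neuronal miRNAs miR-124-3p and miR-9-5p were detected on no array, and the third neuronal marker, miR-128-3p, was detected on all 4. The 3 stromal miRNAs of the miR-199a and miR-214 clusters summed to 592.1 and 535.5 in esophagus and 198.1 and 180.4 in serum.

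In esophagus no member of the cluster differed 2-fold between 46 and 28 weeks. Net signals were first scaled so that the median of the miRNAs detected on both arrays was equal. Of 12 members detected at both ages, 0 were higher by 2-fold or more at 46 weeks and 0 lower, against 0.181% and 0.361% of the 554 miRNAs detected at both ages. Their median log2 difference was 0.12, and that of all 554 was -0.07. Under no scaling the median over members was 0.42 and that over all miRNAs 0.23.

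The differences that exceeded 2 spot-noise SDs in esophagus were those of 4 members. At 46 minus 28 weeks the log2 difference was 0.52 for miR-370-3p (spot-noise SD 0.12), 0.40 for miR-665-3p (SD 0.16), 0.25 for miR-494-3p (SD 0.09) and -0.73 for miR-127-3p (SD 0.27). The first was positive under all 8 alternative settings, at 0.24 to 0.83, and so was that of miR-494-3p, at 0.26 to 0.55. For miR-665-3p 7 of the 8 gave the same sign and 1 gave -0.0073. For miR-127-3p the sign turned to 0.18 with normexp, a setting that changes the background to the local one, adds an offset of 50 and applies quantile normalization together. The local background lay at 55.05 around this spot at 46 weeks and at 67.7 at 28 weeks, and its part in the turn was not tested. The remaining 8 lay between -0.66 and 0.40. The highest of these, 0.40 for miR-493-3p (SD 0.24), turned to -0.055 with normexp. A further 4 members were detected at 46 weeks only, namely miR-337-3p, miR-299a-5p, miR-329-3p and miR-154-5p, and none at 28 weeks only. These were 9.76% and 0% of the members, against 9.80% and 1.502% of all miRNA probes. A fold bound for such members was taken against the lowest detected signal of the other array and is the lowest of 4 scalings (median, none, spike-in and that of the authors' table). Spot noise does not enter the bound, and normexp and quantile normalization are not among its scalings. By this bound miR-329-3p was at least 1.07-fold and miR-299a-5p at least 1.02-fold higher at 46 weeks, and for the others no bound above 1 could be given. The values of these 2 at 46 weeks, 11.99 and 11.4, had a spot-noise SD of 2.0 each, so neither bound holds within noise.

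**Figure D2:**
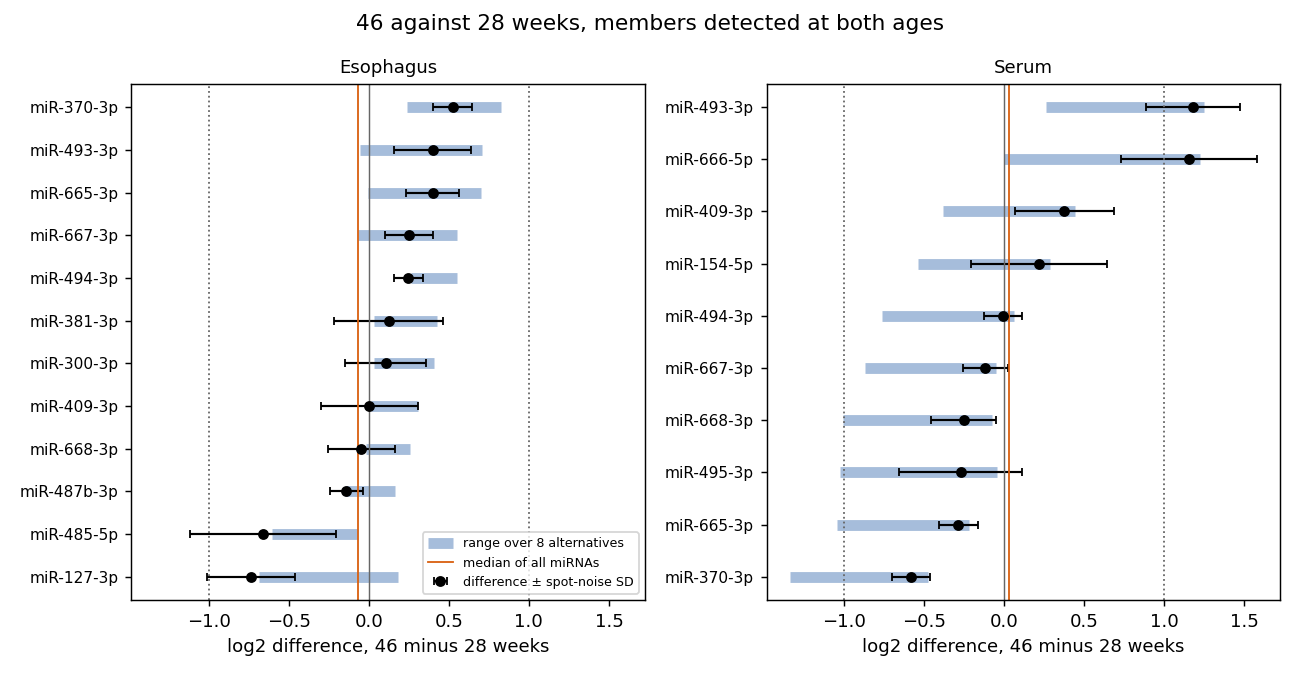
Log2 difference of scaled net signal, 46 minus 28 weeks, for the 12 members detected at both ages in esophagus (left) and the 10 in serum (right). Points carry the spot-noise SD, pale bars span 8 alternative settings, dotted lines mark 2-fold and the orange line the median of all miRNAs detected at both ages. In esophagus no point reaches 2-fold, and in serum miR-493-3p and miR-666-5p do, each with a pale bar that extends well below it.

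In serum 2 members were at least 2-fold higher at 46 than at 28 weeks, and both were dim. The log2 difference was 1.18 for miR-493-3p (spot-noise SD 0.29) and 1.15 for miR-666-5p (SD 0.43), and 0 members were at least 2-fold lower. The background over 581 miRNAs was 7.75% higher and 4.13% lower by that fold, and 10 of the 581 were members. The positive difference of miR-493-3p was kept in all 8 alternative settings, at 0.26 to 1.25, while miR-666-5p stood at -0.0030 with normexp and at 1.22 without a detection filter. Neither reached 2-fold in the authors' deposited value table, where they stood at 0.89 and 0.87.

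In serum 6 of the 10 members had negative differences, while 52.15% of all 581 miRNAs had positive ones. The log2 difference was -0.58 for miR-370-3p (SD 0.12) and -0.29 for miR-665-3p (SD 0.12), and both were negative in all 8 alternatives, at -1.34 to -0.48 and -1.04 to -0.22. It was -0.25 for miR-668-3p (SD 0.20), -0.12 for miR-667-3p (SD 0.14) and -0.01 for miR-494-3p (SD 0.12), each within 2 spot-noise SDs, and the last turned positive in 2 of the 8 alternatives. It was 0.38 for miR-409-3p (SD 0.31), 0.22 for miR-154-5p (SD 0.42) and -0.27 for miR-495-3p (SD 0.38). The median over the 10 members was -0.06, and that over all 581 was 0.03. With spike-in scaling, where those spots averaged 14018 net units at 46 weeks and 9324 at 28 weeks, these medians were -0.82 and -0.72.

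More members were detected in the younger serum than in the older. At 46 weeks only, 1 member was detected (2.44%, against 0.632% of all miRNA probes): miR-487b-3p, at least 1.76-fold higher. At 28 weeks only, 11 were detected (26.8%, against 14.5% of all miRNA probes), and at the common limit the 2 arrays detected 11 and 13 members. The 11 were miR-127-3p, miR-337-3p, miR-434-3p, miR-299a-5p, miR-329-3p, miR-376b-3p, miR-376a-3p, miR-300-3p, miR-539-5p, miR-382-5p and miR-485-5p. The largest bound among them was that of miR-376b-3p, at least 1.35-fold higher at 28 weeks, and for 6 of the 11 no bound above 1 could be given. The erythrocyte sum was 24713 at 46 weeks and 37941 at 28 weeks, that of 4 striated muscle miRNAs 163.3 and 867.7, and that of liver-derived miR-122-5p alone 70.0 and 590.8. Most of the erythrocyte sum was miR-451a, at 23648 and 36871, and within that list miR-486-5p went the other way, at 1013 and 923.4. Other sums ran the other way: the 2 squamous epithelial miRNAs summed to 242.0 in serum at 46 weeks and 54.1 at 28 weeks, and the 3 neuronal ones to 176.7 and 66.25. The 2 miRNAs listed for platelets, miR-223-3p and miR-126-3p, summed to 1628 and 848.1. The neuronal sums came almost wholly from miR-128-3p, at 175.8 and 61.5, with miR-124-3p and miR-9-5p undetected. The difference in the platelet list came from miR-223-3p, at 1306 and 526.5, while miR-126-3p read 321.3 and 321.6. The cell source of miR-223-3p was not tested. The part of these in the members' differences was not tested.

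Between esophagus and serum, miR-487b-3p and miR-494-3p were higher in esophagus and miR-665-3p higher in serum at both ages. At 46 weeks 2 of 9 members detected in both were at least 2-fold higher in esophagus and 0 at least 2-fold higher in serum, against 20.1% and 17.7% of 543 miRNAs. Esophagus minus serum came to a log2 difference of 2.72 for miR-487b-3p (spot-noise SD 0.27), 1.54 for miR-494-3p (SD 0.11) and -0.99 for miR-665-3p (SD 0.14). Over 8 alternative settings they ranged over 0.95 to 2.68, 0.96 to 1.5 and -1.43 to -0.37. The other 6 members stood between -0.17 and 0.38. The opposite arm miR-665-5p, not a member, stood the other way at 46 weeks, at 0.88 (SD 0.14), and at -0.31 (SD 0.11) at 28 weeks. The opposite arms miR-487b-5p and miR-494-5p stood at 1.18 and 0.79 at 46 weeks and at 0.85 and 0.94 at 28 weeks.

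At 28 weeks 4 of 10 members detected in both were at least 2-fold higher in esophagus and 2 at least 2-fold lower, against 25.5% and 13.7% of 549 miRNAs. The log2 difference was 1.48 for miR-300-3p (SD 0.35), 1.22 for miR-494-3p (SD 0.09), 1.18 for miR-127-3p (SD 0.26) and 1.09 for miR-493-3p (SD 0.30). It was -1.74 for miR-665-3p (SD 0.15) and -1.34 for miR-370-3p (SD 0.12). The directions of miR-494-3p, miR-493-3p, miR-665-3p and miR-370-3p were kept in all 8 alternatives. Those of miR-300-3p and miR-127-3p turned to -0.058 and -0.14 with normexp. In all 8 alternatives miR-494-3p stayed under 2-fold, at 0.39 to 0.92, and so did miR-493-3p, at 0.16 to 0.79, and miR-127-3p, at -0.14 to 0.89. This comparison leaned on the scaling: the median over all 549 miRNAs was 0.18, against -0.26 with no scaling and -0.65 on the spike-in scale. Above the median of all miRNAs were 6 of the 10 members with median scaling and 4 with normexp.

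At 28 weeks 2 members were detected in esophagus only (4.88%) and 11 in serum only (26.8%), against 1.90% and 17.0% of all miRNA probes. At 46 weeks 7 were detected in esophagus only (17.1%) and 2 in serum only (4.88%), against 10.7% and 3.64%. The detection limit was lowest in serum at 28 weeks. Some of these members gave lower bounds above 1, which leave out spot noise. At 28 weeks miR-487b-3p was at least 11.6-fold higher in esophagus over the 4 scalings, and miR-381-3p at least 1.69-fold. At 46 weeks miR-300-3p was at least 2.55-fold and miR-381-3p at least 1.87-fold higher in esophagus, and miR-127-3p at least 1.73-fold. On the serum side the bounds were at least 1.62-fold for miR-666-5p at 46 weeks and at least 1.06-fold for miR-495-3p at 28 weeks. The comparisons of age and of sample type share arrays, so their differences are not independent.

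**Figure D3:**
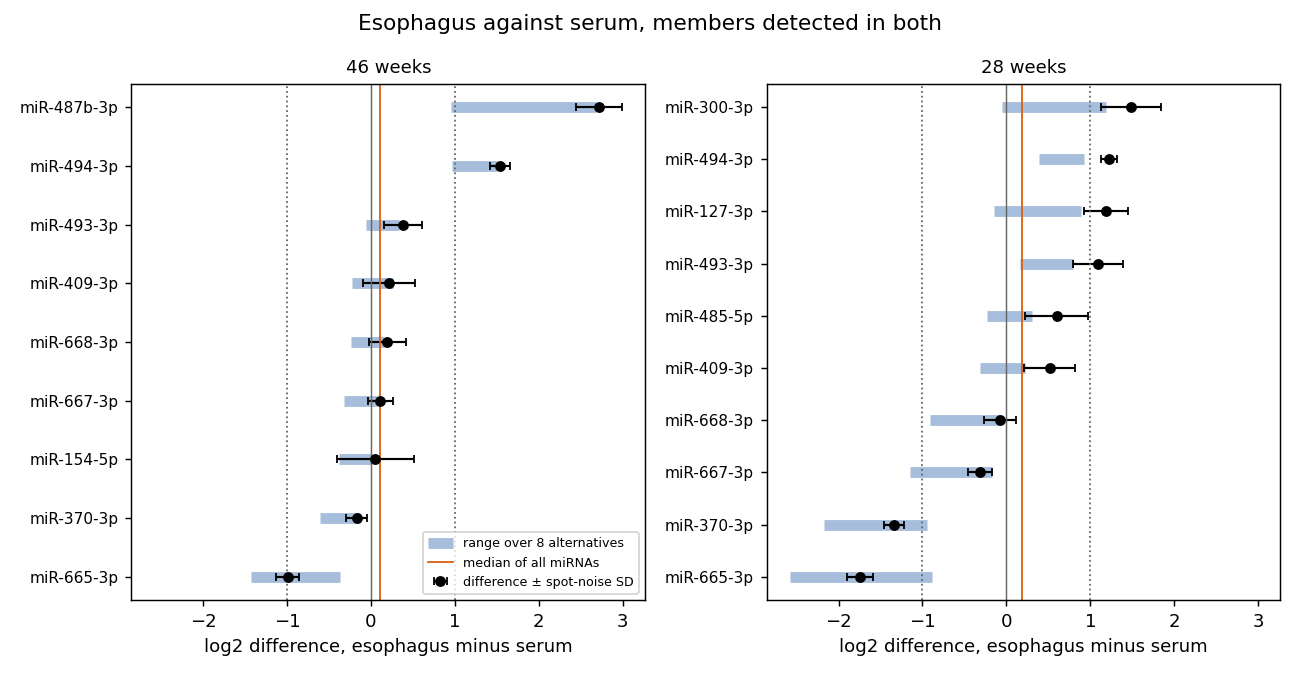
Log2 difference of scaled net signal, esophagus minus serum, for the 9 members detected in both at 46 weeks (left) and the 10 at 28 weeks (right). Points carry the spot-noise SD, pale bars span 8 alternative settings, dotted lines mark 2-fold and the orange line the median of all miRNAs detected in both. At 46 weeks miR-487b-3p and miR-494-3p stand to the right of 2-fold, and at both ages miR-665-3p is lowest.

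The array carried 63 further probes for miRNAs that RefSeq places within the same span or, for miR-493-5p, just before it, mostly the opposite arms of the members. Of these, 12 were detected on all 4 arrays and 30 on none, with 24 and 12 found in older and younger esophagus and 17 and 31 in serum. Between ages 0 of 12 differed 2-fold in esophagus. In serum 1 of 17 was higher by 2-fold or more in the older sample, and 2 were lower. The one higher was mmu-miR-1188-5p, of a hairpin between the Rtl1 span and miR-370.
mmu-miR-1188-5p: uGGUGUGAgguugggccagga
Its net signal was 8.41 and 7.74 in older and younger esophagus, and 108.3 and 7.08 in serum, a log2 difference of 4.10 between ages in serum (spot-noise SD 0.31). The serum array at 46 weeks alone stood high. The opposite arm miR-1188-3p read 30.7 in serum at 46 weeks and 48.2 at 28 weeks. The 2 lower ones were miR-540-3p, at 9.79 and 23.3, and miR-665-5p, at 42.4 and 100.8 in older and younger serum, with log2 differences of -1.08 each (SD 0.36 and 0.14).

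Both arms of a hairpin come from 1 precursor. Among members matched in RefSeq, 35 hairpins had a member and a non-member arm with a probe each. The hairpins miR-376c, miR-485 and miR-487b, whose members were not matched, are left out of these counts. Their other arms miR-376c-5p, miR-485-3p and miR-487b-5p were detected on 0, 2 and 4 arrays, and their members on 0, 3 and 3. The member was detected on more arrays than the other arm in 14, the other arm on more arrays in 10, and 11 were equal, 7 of them with neither arm detected. Both arms passed the limit on all 4 arrays for 3 hairpins, miR-494, miR-665 and miR-667. In 3 hairpins the member was detected on no array and the other arm on all 4. These were miR-134, where miR-134-3p read 25.4 and 19.7 in older and younger esophagus and 15.5 and 25.2 in serum, miR-323, where miR-323-5p read 17.0 and 15.9 in esophagus and 11.8 and 12.1 in serum, and miR-431, where miR-431-3p read 17.6 and 17.9 in esophagus and 7.96 and 5.90 in serum. In 9 of the 10 hairpins with the other arm on more arrays, that arm had the higher share of G and C. Among the 14 with the member on more arrays the member had the higher share in 10, the other arm in 3 and neither in 1, and over all 35 the other arm was higher in 17.

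Members detected on all 4 arrays held more G and C than members detected on none. The median share of G and C was 65.0% (45.5% to 68.2%) in the 7 members detected on all 4 arrays and 45.5% (23.8% to 59.1%) in 17 members detected on none. Of 16 members with at least 50% G and C, 6 were detected on all 4 arrays, and of 22 members under 50% 1 was, miR-494-3p. These are 37.5% and 4.55%, against 52.0% of 537 and 22.6% of 483 miRNAs with a RefSeq sequence. The same lean was present over all 1020 miRNAs with a RefSeq sequence and a probe of their own, with medians of 57.1% and 43.5%. Across the 38 members Spearman's rho between G and C content and net signal was 0.51 and 0.43 in older and younger esophagus and 0.45 and 0.36 in serum. Across the 1020 miRNAs it was 0.45 and 0.42 in esophagus and 0.50 and 0.52 in serum. These are correlations across miRNAs of one array, which share labelling and hybridisation and are not independent replicates. The part of base composition in the net signals was not tested.

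**Figure D4:**
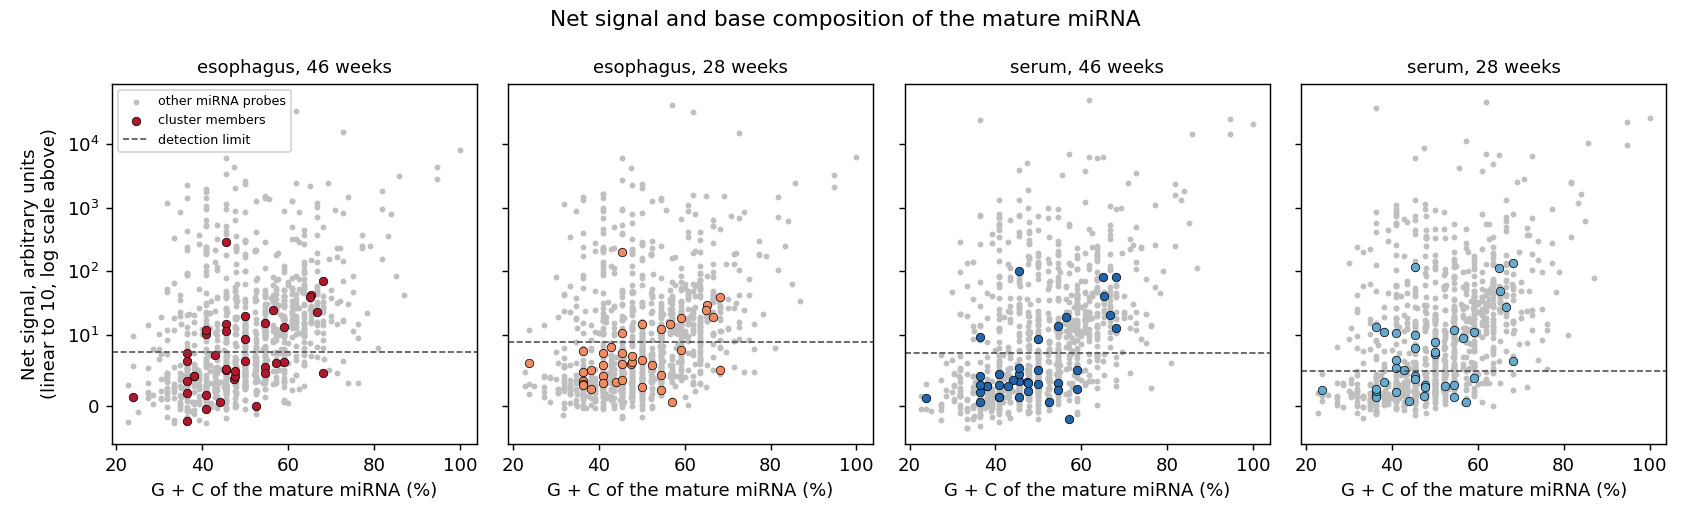
Net signal (arbitrary units, linear to 10 and logarithmic above) against the share of G and C in the mature miRNA for 38 members (coloured) and the rest of 1020 miRNAs (grey) on each array, with the detection limit dashed. Of the 7 members detected on all 4 arrays, 6 lie at 54.55% or more, and miR-494-3p lies at 45.45%.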

How the data were processed

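RNA was labelled with the dye Hy5 and read in 1 colour on Toray 3D-Gene arrays, per the labels' protocols. The deposited scanner files hold, per the file headers, spot and local background intensity on a linear scale, joined over 3 scanner gains and not corrected. Each array had 3200 spots. For pooling, scanner and software the sources used here give nothing. The authors' deposited value table held processed intensity, which the values show to be a straight line of the scanner's spot intensity on each array, reaching 0 at about the BLANK mean and with a median of 25.

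The BLANK mean was subtracted, and each pair of arrays was scaled to equal medians over miRNAs detected on both. The normexp correction of limma 3.58.1 (R 4.3.3), with an offset of 50, the local background and quantile normalization, was an alternative, because the offset draws dim miRNAs toward 0. The settings also covered quantile normalization, no scaling, spike-in scaling, the authors' table and other detection limits. A bound for a miRNA under the limit on 1 array uses that array's lowest signal among detected miRNAs, or its own where higher, and is the lowest over 4 scalings. It leaves out spot noise. The code was tested on simulated data. One spot marked bad by the scanner, of no member, was left out. Python 3.11.15, numpy 2.4.6, pandas 2.3.3, scipy 1.17.1 and matplotlib 3.10.9 were used.

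All 41 members are named, with values on every array for those detected on at least 2 arrays. Members and lists were chosen with earlier results of these data known.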

Additional observations from a re-analysis of the deposited data

Results flagged for a closer look

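Differences between ages ran in opposite directions in esophagus and serum for 2 members detected on all 4 arrays, each past 2 spot-noise SDs in both sample types. For miR-370-3p older minus younger came to 0.52 (log2) in esophagus and to -0.58 in serum, 1.11 apart. For miR-665-3p it came to 0.40 in esophagus and to -0.29 in serum, 0.69 apart. With normexp the signs for miR-665-3p were no longer opposite, at -0.0073 in esophagus and -0.55 in serum. How many of all miRNAs met the same rule was not counted. Each side rests on 1 array per age, and the difference between esophagus and serum was not tested.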

How the results depend on the processing

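No paired analysis was possible because each group had 1 array. Signal over background was the main limit. Normexp changes background, offset and normalization together, and unsubtracted quantile both subtraction and normalization, so no single choice was isolated by either. The scalings of the fold bounds were added after seeing the data. With BLANK mean plus 2 SD, members detected numbered 32 and 33 (older and younger esophagus) and 21 and 32 (older and younger serum), and the authors' table listed 34, 38, 30 and 35. One common net limit, chosen after seeing the data, gave 13 in serum at 28 weeks.

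In esophagus the median age difference was 0.42 with no scaling. With no detection filter 3 members were 2-fold higher and 5 lower, and at 1.5-fold 2 were lower. In serum the median was -0.82 with spike-in scaling and -0.35 in the authors' table. The 2 higher members became 0 with normexp, with unsubtracted quantile, with spike-in scaling and in the authors' table, 1 with no scaling and 7 with no filter. The count lower became 4 with spike-in scaling, 2 with the BLANK limit and 7 with no filter, and miR-666-5p turned to -0.0030 with normexp.

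For esophagus minus serum at 28 weeks the median was -0.088 with normexp, 0.035 with unsubtracted quantile, 0.19 with quantile normalization, 0.11 with no scaling, -0.28 with spike-in scaling, 0.18 in the authors' table, 0.24 with the BLANK limit and 0.32 with no filter. The 4 higher members became 0 with normexp, with unsubtracted quantile and with spike-in scaling, 1 with quantile normalization, no scaling and the authors' table, 7 with the BLANK limit and 14 with no filter. The 2 lower became 0 with normexp and with unsubtracted quantile, 4 with the BLANK limit and 5 with no filter. With normexp miR-127-3p turned to -0.14 and miR-300-3p to -0.058. At 46 weeks the 2 higher became 0 with normexp, 1 with unsubtracted quantile, 6 with the BLANK limit and 9 with no filter. The count lower became 1 with quantile normalization, no scaling, spike-in scaling, the authors' table and 1.5-fold, 2 with the BLANK limit and 5 with no filter. Lenient limits admit more members; otherwise the cause was not tested.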
